A study of Mus musculus and Homo sapiens with 10 samples.

Results

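Acetylation of histone H3 at lysine 9 (H3K9ac) and hyperacetylation of histone H4 were compared across the genome of NIH3T3 cells, an immortalized mouse fibroblast line. The members are all called peaks of both ChIP-seq lists, 28308 for H3K9ac and 41519 for H4 hyperacetylation, or 69827 of the 208002 peaks in the 10 lists of the series. Chromatin immunoprecipitation with sequencing (ChIP-seq) enriches the DNA held by an antibody target and reports the enriched intervals as peaks. Both libraries came from exponentially growing NIH3T3 cells, for which the labels name no treatment, transgene or deletion. The labels tell them apart by the antibody, one against H3 acetylated at lysine 9 and the other against H4 carrying several acetyl groups at once. Whether read depth and peak calling were alike for both lists is not known. The H3K4me3, Pol II, H3K9me3, UBF and Pol I lists of the same line served as further readouts. With 1 sample behind each list, replicate error could not be estimated and the marks were compared without a test. Intervals in parentheses are exact 95% binomial intervals over peaks, which cover counting error only.

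Acetyl groups neutralise the positive charge of histone tails, loosen their contact with DNA and are bound by bromodomain proteins. H3K9ac is known as a mark of active promoters, where it accompanies H3K4me3, the trimethylation of H3 lysine 4. Acetylated H4 is found at promoters and also at enhancers and in transcribed chromatin, and H3K9me3 marks silent heterochromatin. RNA polymerase I (Pol I) transcribes the ribosomal RNA genes with the help of the factor UBF, and RNA polymerase II (Pol II) transcribes protein-coding genes. The lists come from a population of cells, so peaks of both marks at a site do not show that both were on the same nucleosome or in the same cell.

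H3K9ac lay mostly within the larger H4 hyperacetylation map, while a large part of the H4 map lay outside H3K9ac. An H4 hyperacetylation peak met 90.2% of the H3K9ac peaks (25530 peaks, 89.8 to 90.5) by at least 1 bp. In the other direction an H3K9ac peak met 66.5% of the H4 hyperacetylation peaks (27620 peaks, 66.1 to 67.0). The direction of this asymmetry changed with list length: with the H4 list cut to its 28308 widest peaks, 77.9% of H3K9ac and 80.1% of H4 peaks were shared. Lists of equal length, where most overlaps join 1 peak to 1 peak, give nearly equal shares by construction. The cut also kept the wider H4 peaks, which were more often shared. Whether list length explains the asymmetry of the whole lists was not tested. The whole lists left 2778 peaks with H3K9ac only and 13899 with H4 hyperacetylation only. The marks shared 45.3 Mb of sequence, which was 83.1% of the 54.5 Mb under H3K9ac and 71.0% of the 63.8 Mb under H4 hyperacetylation. Most overlaps were deep: 97.7% of the shared H3K9ac peaks and 95.9% of the shared H4 peaks had at least 50% of their length covered by the other mark. Peaks with one mark only took 4.55% of the H3K9ac length and 19.5% of the H4 length.

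Sharing rose with peak width in both lists. H3K9ac peaks had a median width of 1586 bp (quartiles 1002 and 2421 bp) and H4 hyperacetylation peaks a median of 1197 bp (quartiles 789 and 1923 bp). The median shared H3K9ac peak was 1713 bp wide and the median H3K9ac peak without H4 hyperacetylation 818 bp. For H4 hyperacetylation these medians were 1563 bp and 804 bp, so single-mark peaks of both kinds were narrow and alike in width. In the narrowest of 4 equal groups of the H3K9ac list (237 to 1002 bp) 72.4% of peaks were shared, and in the widest (2422 to 38914 bp) 99.8%, which left 12 peaks without H4 hyperacetylation. The H4 list ran from 35.6% shared in its narrowest group (218 to 789 bp) through 54.0% and 80.4% to 96.1% in its widest (1924 to 38902 bp). The lists carry no peak height, so whether narrow peaks were also weak was not tested.

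**Figure D1:**
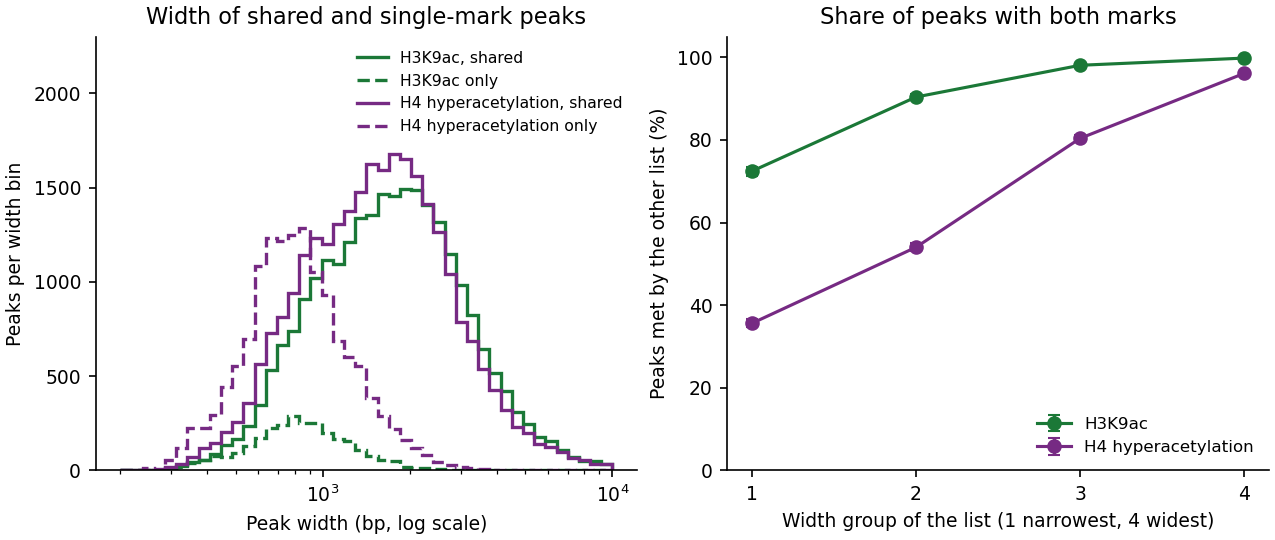
Left, number of peaks per width bin (bp, log scale) for shared peaks (solid) and single-mark peaks (dashed) of H3K9ac (green) and H4 hyperacetylation (purple). Right, percentage of peaks met by the other list in 4 width groups of each list, with exact 95% binomial intervals. H3K9ac rises from 72.4% to 99.8% and H4 hyperacetylation from 35.6% to 96.1%.

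Peaks that overlap, directly or through one another, were joined into 41176 sites, of which 24499 held both marks. At 21171 of these (86.4%) 1 H3K9ac peak met 1 H4 hyperacetylation peak and nothing else. The commonest departure was 1 H3K9ac peak over 2 H4 peaks, at 2166 sites, while 1 H4 peak over 2 H3K9ac peaks occurred at 547. A further 222 H3K9ac peaks each spanned 3 or more H4 peaks, and 360 sites held 2 or more peaks of each mark. At the 2166 sites with a divided H4 peak the H3K9ac peak was wide, with a median of 2734.5 bp. H3K4me3 was present at 96.4% of these H3K9ac peaks and Pol II at 76.5%. The gap between the H4 pieces was short, with a median of 98 bp (quartiles 44 and 177 bp). H3K4me3 met 91.1% of these gaps and Pol II met 25.8%, each by at least 1 bp. The gaps are far shorter than the H3K9ac peaks, so their shares cannot be compared with those of the whole peaks. The wider piece of each pair had a median of 1677.5 bp and the narrower piece a median of 852 bp. At the 547 sites with 1 H4 peak over 2 H3K9ac peaks the gap also had a median of 98 bp. H3K4me3 met 71.5% of those gaps and Pol II 11.7%.

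At one-to-one sites the marks had nearly the same extent. The median H3K9ac peak was 1628 bp wide and the median H4 hyperacetylation peak 1618 bp. The ratio of H4 to H3K9ac width had a median of 0.971 (quartiles 0.827 and 1.15), and H4 was the wider mark at 44.2% of sites (43.5 to 44.9). The H4 peak was at least 1.5 times as wide at 9.02% of the sites and the H3K9ac peak at 8.72%, so large differences in width were about as frequent in each direction. The peak centres lay a median of 110 bp apart, and the overlap made up a median of 80.6% of the joint interval. The H4 peak lay inside the H3K9ac peak at 34.2% of sites, and the H3K9ac peak lay inside the H4 peak at 23.2%.

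Which mark was wider differed with the other proteins present. H3K4me3 and Pol II together, the pattern of active promoters, were found at 11578 one-to-one sites, and there the median ratio was 0.927, with H4 the wider mark at 33.9% (33.0 to 34.7). At the 1896 sites with neither H3K4me3 nor Pol II the median ratio was 1.10, and H4 was the wider mark at 65.2% (63.0 to 67.3). The H4 peak was at least 1.5 times as wide at 20.7% of the sites with neither and at 4.45% of those with both, against 9.02% over all one-to-one sites. The 7327 sites with H3K4me3 and no Pol II peak stood between, at 1.03, and the 370 sites with Pol II and no H3K4me3 had a median ratio of 1.13. Sites without H3K4me3 were narrow, with a median H3K9ac width of 945 bp against 1752 bp with H3K4me3. Within 4 groups of site width (the geometric mean of the 2 peaks), the medians with both H3K4me3 and Pol II ran 0.947, 0.893, 0.915 and 0.950 from narrow to wide. Those with neither ran 1.05, 1.21, 1.25 and 1.22, above the former in each group, with 37 sites in the last. The sites with H3K4me3 and no Pol II changed sides with width: their median was 0.956 in the narrowest group and 1.04, 1.11 and 1.14 in the others.

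Among the classes set by the other lists, sites with UBF had the narrowest H4 hyperacetylation relative to H3K9ac. Among sites with H3K4me3 and Pol II, the 1400 with a UBF peak had a median ratio of 0.867 (quartiles 0.757 and 0.954), and the 10178 without UBF had 0.939 (0.804 and 1.07). The H4 peak was the wider one at 12.4% of the sites with UBF (10.7 to 14.2) and at 36.8% of those without (35.9 to 37.8). From narrow to wide site groups the medians were 0.936, 0.825, 0.856 and 0.878 with UBF, and 0.947, 0.900, 0.923 and 0.968 without, so the order was the same in each group, the first of which held 41 sites with UBF. The H4 peak lay inside the H3K9ac peak at 61.9% of sites with UBF, H3K4me3 and Pol II and at 40.4% of those without UBF. The 697 sites with Pol I had a median ratio of 0.921. H3K9me3 went with a ratio that depended on width, at 1.12 and 1.13 in the 2 narrower site groups and 0.944 and 0.941 in the 2 wider ones, against 0.966, 0.976, 0.961 and 0.974 without H3K9me3.

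**Figure D2:**
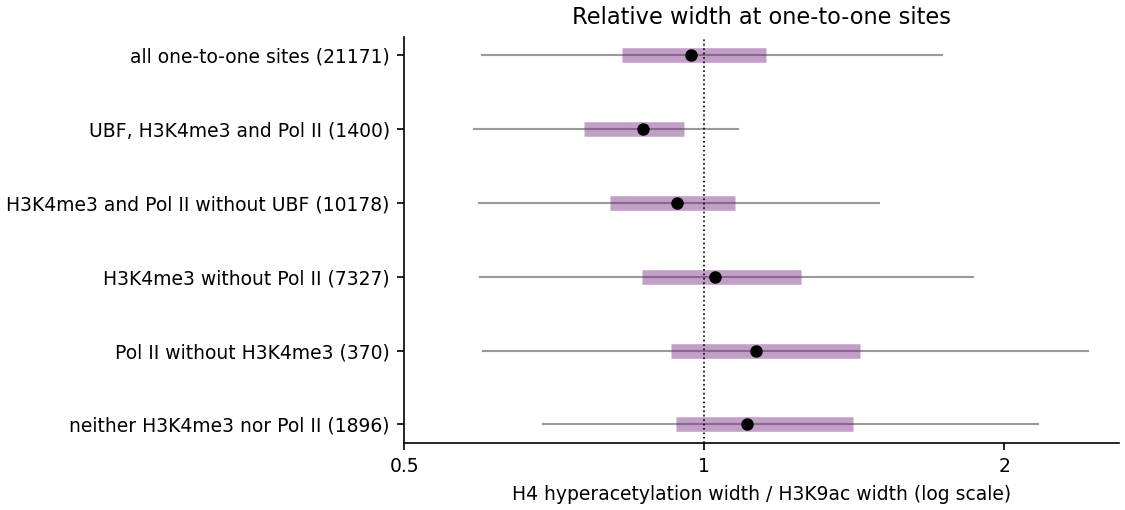
Width of the H4 hyperacetylation peak divided by that of the H3K9ac peak (log scale) at one-to-one sites, by the presence of UBF, H3K4me3 and Pol II, with the number of sites in parentheses. Points are medians, thick bars the quartiles and thin lines the 5th to 95th percentiles. The median lies at 0.867 with UBF, H3K4me3 and Pol II and at 1.10 with neither H3K4me3 nor Pol II.

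Shared peaks and both kinds of single-mark peak lay in different surroundings. Of the shared H3K9ac peaks, 89.4% carried H3K4me3 and 57.7% Pol II, and of the shared H4 peaks 89.7% and 56.3%. H3K9ac-only peaks still carried H3K4me3 at 66.7% (64.9 to 68.4), while Pol II was present at 13.7% (12.5 to 15.1). H4-only peaks carried H3K4me3 at 17.6% (17.0 to 18.2) and Pol II at 9.46% (8.98 to 9.96). Neither H3K4me3 nor Pol II was found at 75.2% of H4-only peaks, 28.9% of H3K9ac-only peaks and 8.89% of shared H3K9ac peaks. UBF was rare at single-mark peaks, at 6 of the 2778 with H3K9ac only (0.216%) and 49 of the 13899 with H4 only (0.353%), against 6.97% of shared H3K9ac peaks. Pol I was also rare at single-mark peaks, at 0.648% with H3K9ac only and 0.424% with H4 only, against 3.51% of shared H3K9ac peaks. At similar width these contrasts were mostly smaller. In the narrowest width group of the H3K9ac list, UBF met 0.818% of shared and 0.256% of H3K9ac-only peaks, and Pol I 1.13% and 0.461%. At 1003 to 1586 bp UBF met 1.70% and 0.147%, and Pol I 1.58% and 1.33%. In the narrowest group of the H4 list, UBF met 1.16% of shared and 0.418% of H4-only peaks.

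Single-mark peaks were narrow, and for H3K9ac the contrasts with shared peaks were smaller in the narrowest width group. In the narrowest width group of the H3K9ac list, H3K4me3 was present at 66.7% of H3K9ac-only peaks (64.6 to 68.8) and at 71.7% of shared ones (70.4 to 72.9), and Pol II at 10.9% and 18.2%. Among H3K9ac peaks of 1003 to 1586 bp, H3K4me3 was present at 66.0% of H3K9ac-only and 85.6% of shared peaks. At 1587 to 2421 bp these shares were 68.9% and 96.0%, and Pol II was present at 31.1% and 70.7%. In the narrowest width group of the H4 list, H3K4me3 was present at 14.6% of H4-only peaks (13.8 to 15.5) and at 80.3% of shared ones (79.0 to 81.6). In the widest group these shares were 27.9% and 96.7%. The gap in H3K4me3 between H4-only and shared H4 peaks was thus present in both outer width groups. That between H3K9ac-only and shared H3K9ac peaks was small in the narrowest group and larger from 1003 to 2421 bp. The share of H4-only peaks with H3K4me3 depended on how peaks were paired. It was 27.2% when centres had to lie within 1000 bp and 36.3% with every peak set to 500 bp. Among the wider 50% of each list it was 62.1%. Each lay below the share at H4 peaks that were shared under the same rule (88.8%, 89.0% and 97.5%). The last setting first removed the narrower H3K9ac peaks, so its 6992 H4-only peaks include peaks that met H3K9ac in the whole list. With the whole lists, H3K4me3 was present at 24.4% of 2035 H4-only peaks of 1198 to 1923 bp and at 27.9% of 402 wider ones.

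**Figure D3:**
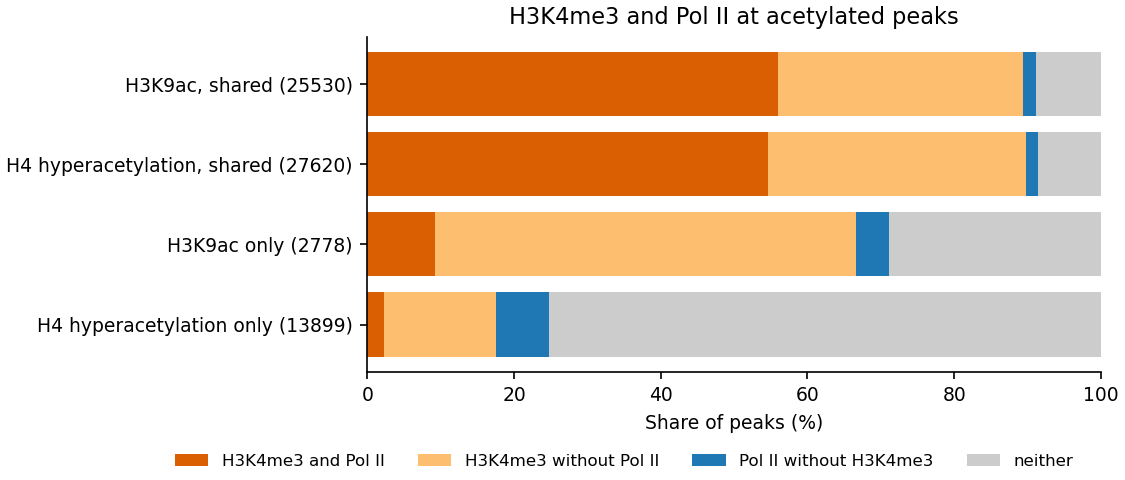
Share of peaks (%) with H3K4me3 and Pol II, with H3K4me3 without Pol II, with Pol II without H3K4me3 and with neither, for shared and single-mark peaks of each list, with the number of peaks in parentheses. Neither is found at 75.2% of H4-only peaks, 28.9% of H3K9ac-only peaks and 8.89% of shared H3K9ac peaks.

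H3K9ac-only peaks lay close to H4 hyperacetylation without meeting it. On the autosomes and X, 1142 of 2763 (41.3%) had an H4 peak within 1 kb of their edge and 878 more (31.8%) within 10 kb, with a median gap of 1830 bp over the whole list. At the centre of H3K9ac-only peaks, 64.9% were under H3K4me3 and 10.4% under Pol II. At 2 kb to the lower-coordinate side Pol II covered 14.7% and H4 hyperacetylation 20.1%, and at 2 kb to the other side 12.9% and 19.4%. At 5 kb the H4 shares were 10.0% and 10.9%. Pol II was thus commoner 2 kb beside these peaks than on their centres. Around shared H3K9ac peaks it was the reverse, with Pol II over 45.9% of centres and 5.88% and 5.84% of the points 2 kb to either side. H3K9me3 was scarce at H3K9ac-only peaks, at 1.84% (1.37 to 2.41) against 14.0% of shared H3K9ac peaks.

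H4-only peaks lay further from the nearest peak of the other mark. That other list was also the shorter one, with 28308 H3K9ac against 41519 H4 hyperacetylation peaks. How much of the difference in distance comes from list length was not tested. On the autosomes and X, 2857 of 13626 were within 1 kb of an H3K9ac peak, 5060 (37.1%) between 1 and 10 kb, 4681 (34.4%) between 10 and 100 kb and 1028 (7.54%) beyond 100 kb. The median gap over the whole list was 6607 bp. H3K4me3 did not fall off with that distance: its shares in these 4 classes were 19.4%, 14.4%, 19.7% and 18.1%, and those of Pol II 8.37%, 10.3%, 8.78% and 10.0%. H3K9me3 was more frequent far out, at 9.21%, 12.0%, 12.7% and 33.2% (30.3 to 36.1). The farthest class was also the narrowest, with a median width of 648 bp against 791 to 854.5 bp in the nearer ones.

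**Figure D4:**
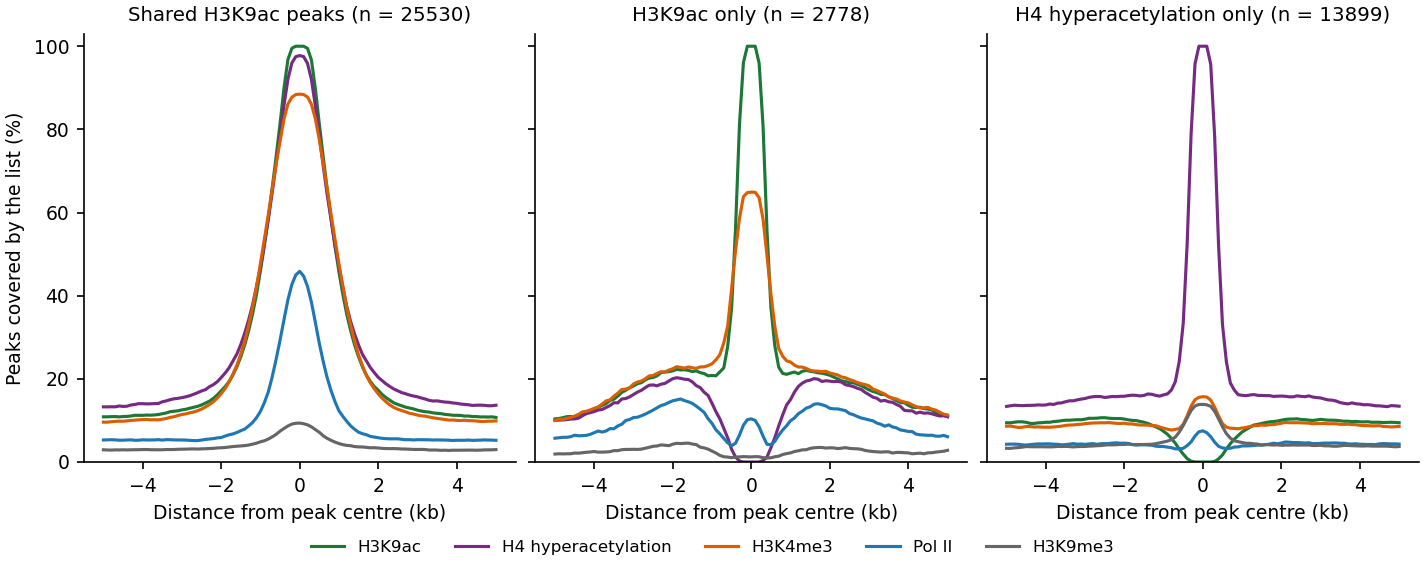
Percentage of peaks covered by each NIH3T3 list at distances of up to 5 kb from the peak centre, for shared H3K9ac peaks, H3K9ac-only peaks and H4-only peaks. Pol II covers 45.9% of the centres of shared H3K9ac peaks, and around H3K9ac-only peaks it is higher 2 kb out (14.7% and 12.9%) than at the centre (10.4%). H3K9me3 covers 13.9% of the centres of H4-only peaks.

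H3K9me3, the silent mark, met H4-only peaks about as often as shared ones but hardly met H3K9ac-only peaks. It was present at 14.8% of H4-only peaks (14.2 to 15.4), at 13.2% of shared H4 peaks and at 1.84% of H3K9ac-only peaks. Among narrow peaks the contrast was larger, with 15.2% of H4-only peaks (14.3 to 16.1) and 6.43% of shared H4 peaks (5.66 to 7.26) in the narrowest width group of the H4 list. In the widest group the shares were 22.4% and 22.1%. Of the 2055 H4-only peaks with H3K9me3, 1413 had neither H3K4me3 nor Pol II. Chromosomes differed in the share of H4-only peaks with H3K9me3. It lay between 8.88% (chromosome 9) and 19.5% (chromosome 18) on 18 of the 19 autosomes, and at 32.5% (28.4 to 36.8) on chromosome 19. Of the H4-only peaks more than 100 kb from H3K9ac, 69 of 80 on chromosome 19 and 45 of 73 on chromosome 18 met H3K9me3, against 227 of 875 (25.9%) on the other 18 chromosomes. A split of chromosome 19 at 42 Mb was chosen after its values were seen. H3K9me3 was present at 40.9% of 345 H4-only peaks below 42 Mb and at 14.0% of 157 above it. The H3K9me3 list itself held 15.7 peaks per Mb below and 12.2 above.

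On chromosome Y and the unplaced contigs, most H4 hyperacetylation peaks of either kind met H3K9me3. The contigs held 182 H3K9ac peaks and 418 H4 peaks, 167 of each of them shared. H3K9me3 met 228 of the 251 H4-only peaks there (90.8%, 86.6 to 94.1) and 97 of the 167 shared H4 peaks (58.1%, 50.2 to 65.7), or 325 of 418 in all. On Y there were 4 H3K9ac peaks, all shared, and 26 H4 peaks, and 25 of these 26 met H3K9me3, 21 of the 22 H4-only peaks and all 4 shared ones. The H3K9me3 list was itself longer than the H4 list there, with 754 peaks on the contigs and 63 on Y. How much of the overlap comes from that was not tested.

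Seen from the other lists, both acetylation marks were usually present or absent together. Of the 27982 H3K4me3 peaks, 79.8% met both marks, 5.05% H3K9ac only, 7.36% H4 hyperacetylation only and 7.78% neither. Of the 30239 Pol II peaks, 59.1% met both and 33.6% neither, with 2.45% on H3K9ac only and 4.89% on H4 only. H3K9me3 peaks were the most one-sided: 15.1% met both marks, 83 of 23795 (0.349%) H3K9ac only and 1988 (8.35%) H4 hyperacetylation only. Of 3704 UBF peaks, 48.9% met both, 7 met H3K9ac only and 47 met H4 only. Of 1409 Pol I peaks the shares were 67.0% for both, 1.85% for H3K9ac only and 4.33% for H4 only.

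Along the chromosomes the density of both marks followed a similar order, with chromosome 11 the densest at 20.4 H3K9ac and 28.7 H4 peaks per Mb. Lengths are the range covered by the NIH3T3 lists. Among autosomes H3K9ac was sparsest on chromosome 1, at 7.74 peaks per Mb, and H4 on chromosome 14, at 11.4. The X chromosome stood apart from all 19 autosomes, at 3.43 and 4.20 peaks per Mb. It also held fewer H4 peaks for each H3K9ac peak, with 700 against 572, a ratio of 1.22 (1.09 to 1.37). Autosomal ratios ran from 1.35 on chromosome 7 (1.26 to 1.43) to 1.63 on chromosome 3 (1.53 to 1.74), so the interval of X overlapped those of the lowest autosomes. By covered length the ratio was 0.943 on X, where H3K9ac covered more sequence than H4, and 1.09 to 1.29 on the autosomes. With the H4 list cut to its 28308 widest peaks the count ratio was 0.762 on X and 0.873 to 1.15 on the autosomes.

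H4 hyperacetylation on X was also narrow where both marks were present. At 443 one-to-one sites on X the median width ratio was 0.867 (quartiles 0.737 and 0.975), below each autosome, which ran from 0.934 on chromosome 13 to 1.002 on chromosome 15. The sites of X met H3K4me3 and Pol II together somewhat more often, at 62.5% against 54.6% on autosomes. Within that class the ratio was 0.847 on X and 0.928 on autosomes, and at sites with H3K4me3 and no Pol II it was 0.884 and 1.03. At the 26 sites on X without H3K4me3 the ratio was 1.12, against 1.11 on autosomes. Of H4 peaks on X, 76.7% met H3K9ac, above the autosomal range of 59.8% to 73.1%, and of H3K9ac peaks 86.9% met H4, below the range of 87.9% to 92.8%. H4-only peaks numbered 0.979 per Mb on X and 3.78 to 8.73 per Mb on autosomes, where H4 peaks of all kinds were also denser.

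**Figure D5:**
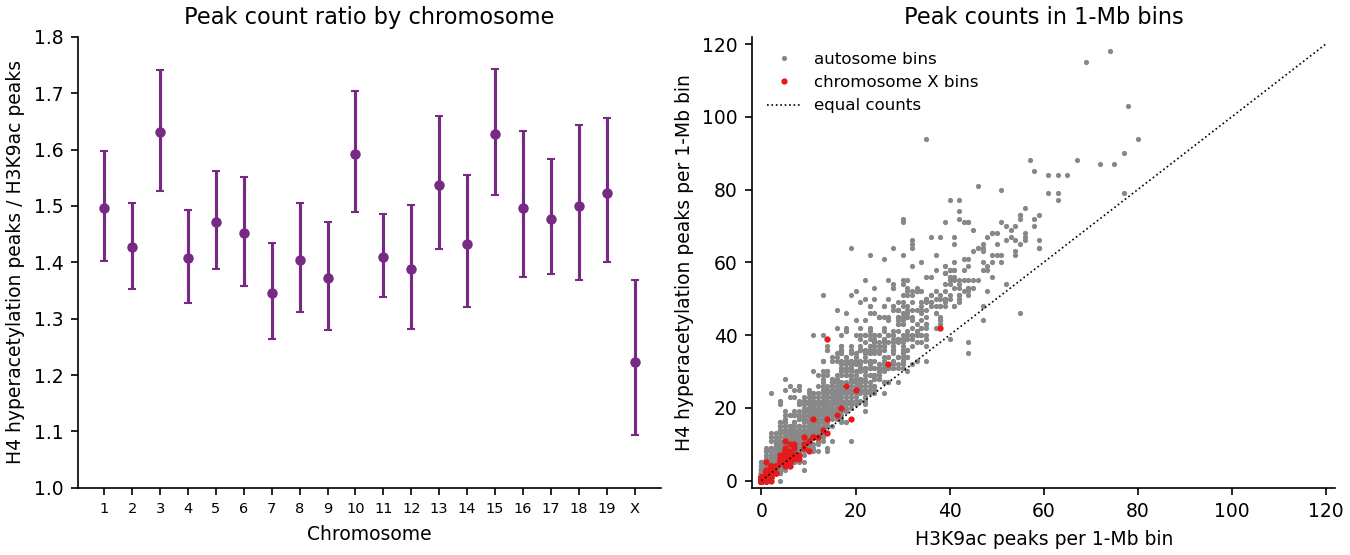
Left, number of H4 hyperacetylation peaks divided by that of H3K9ac peaks on each chromosome, with intervals derived from the exact 95% binomial interval (the axis starts at 1). Right, peaks of both marks in each 1-Mb bin of the autosomes (grey) and X (red), with a dotted line at equal counts. The X chromosome has the lowest ratio, 1.22, and most bins lie above the line.

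In bins of 1 Mb, counts of the 2 marks were closely related. Over 2647 bins of the autosomes and X, Pearson's r was 0.959 and Spearman's rho 0.968. Bins are not independent, and they share gene density, mappability and cell source, so these are descriptions. H3K9ac was related to H3K4me3 with r = 0.982 and H4 hyperacetylation with r = 0.939. Of the bins, 449 held no peak of either mark, 145 held H4 only and 22 H3K9ac only. H4 peaks outnumbered H3K9ac peaks in 1826 bins and H3K9ac peaks outnumbered H4 peaks in 128. There were 1.76 H4 peaks per H3K9ac peak in bins with 1 to 5 H3K9ac peaks and 1.29 in bins with over 40. The H4-only share of H4 peaks fell from 46.0% to 23.0% between these classes, and the H3K9ac-only share of H3K9ac peaks moved from 11.7% to 8.87%. These classes were set by the H3K9ac count, which is also the denominator of the ratio. Picking bins with few H3K9ac peaks in itself raises the ratio and the H4-only share. Whether sparse regions differ beyond that was not tested.

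The bins with the largest excess of H4 hyperacetylation differed in how often Pol II met their H4-only peaks. The bin at 14 to 15 Mb of chromosome 8 held 94 H4 and 35 H3K9ac peaks. None of its 52 H4-only peaks met Pol II, and 1 met H3K4me3. At 148 to 149 Mb of chromosome 2 there were 72 and 30 peaks, with Pol II at 1 of 40 H4-only peaks. By contrast, at 119 to 120 Mb of chromosome 10 (64 H4 and 19 H3K9ac peaks) Pol II met 25 of 42 H4-only peaks while H3K4me3 met 2. At 97 to 98 Mb of chromosome 11 (118 and 74) Pol II met 14 of 37, and at 88 to 89 Mb of chromosome 4 (115 and 69) it met 10 of 40. Over the whole genome Pol II met 9.46% of H4-only peaks. The bins also differed in Pol II peaks of all kinds. There were 13 in the bin on chromosome 8, 19 on chromosome 2, 73 on chromosome 10, 143 on chromosome 11 and 86 on chromosome 4.

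The reverse excess was small. The 128 bins with more H3K9ac than H4 peaks lay on 19 chromosomes, and in 81 of them the excess was 1 peak. X held 22 of the 128, with 167 of the 2647 bins, and chromosome 13 held 11. The 3 bins with most H3K9ac over H4 were neighbours on chromosome 13, from 21 to 24 Mb, with 44 H3K9ac and 35 H4 peaks, 19 and 11, and 55 and 46. These bins held 41 H3K9ac-only peaks, 38 of them with H3K4me3 and 4 with Pol II, and 4 H4-only peaks. The site with the lowest width ratio of all lay here too, at 23521366 to 23523404, where a 2038-bp H3K9ac peak held a 334-bp H4 peak (ratio 0.164), with H3K4me3 and no Pol II peak. The GRCm38 gene table lists 56 genes of the Hist1 family, the replication-dependent histone genes, all on chromosome 13. Their positions were not carried to mm9, so whether these bins hold them was not tested here. Next, tied at an excess of 6 peaks, came 176 to 177 Mb of chromosome 2 (14 H3K9ac and 8 H4 peaks), a bin without Pol II or H3K9me3 peaks, 119 to 120 Mb of chromosome 5 (9 and 3) and the bin starting at 47 Mb of chromosome 6 (44 and 38). The last of these falls outside the 5 bins of the naming rule.

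The widest acetylated sites show how the marks divide. The widest of all, on chromosome 9 of mm9 from 2999864 to 3038778, was 1 peak of 38914 bp in H3K9ac and 38902 bp in H4 hyperacetylation. H3K4me3, Pol II and H3K9me3 each had 1 peak of 38691 to 39114 bp on the same interval, so it is not read as an ordinary acetylated site. On chromosome 10 from 79603120 to 79633117, 1 H3K9ac peak of 29347 bp spanned 6 H4 peaks, the widest 9496 bp, with 11 Pol II and 2 H3K4me3 peaks. On chromosome 6 from 31014290 to 31041961, 1 H3K9ac peak of 27671 bp spanned 5 H4 peaks, with 7 Pol II peaks and 1 H3K4me3 peak. On chromosome 17 from 27274865 to 27301391 the division was the other way in part, with 3 H4 peaks, the widest 20664 bp, over 2 H3K9ac peaks, the wider 13653 bp. The remaining one of the 5, on chromosome 11 from 3021708 to 3049070, held 1 H3K9ac peak of 27263 bp and 2 H4 peaks, the wider 24469 bp.

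The widest peaks with one mark differed in their company. The widest H3K9ac-only peak, of 3741 bp, lay on chromosome 19 (start 9045059, end 9048800). The next, of 3521 bp, lay on chromosome 5 (start 144277313, end 144280834), followed by one of 3479 bp on chromosome 12 (start 112998611, end 113002090). Each of these 3 met both H3K4me3 and Pol II. The nearest H4 peaks lay 944, 6591 and 207 bp away. The fourth, on chromosome 4 from 127044282 (2864 bp), met no other list and had H4 67 bp away, and the fifth, on chromosome 16 from 4605969 (2824 bp), met Pol II alone. The widest H4-only peak, on chromosome 15 from 58306035 to 58311247 (5212 bp), met none of the other lists. The next 4 all met H3K9me3. A pair of them lay side by side on chromosome 8, one of 4862 bp starting at 19981542 and one of 4623 bp starting at 19973698. Both also met Pol II, and the latter H3K4me3. Their bin, 19 to 20 Mb, held 25 H4-only peaks, 24 with H3K9me3, the highest such count of the bins on the autosomes and X, followed by 14 to 15 Mb (17 of 18) and 15 to 16 Mb (15 of 15) of chromosome 5. These counts were ranked after they were seen.

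The sites with the most unequal widths were small peaks of one mark in larger ones of the other. On chromosome 8 from 109052483 to 109054785 a 331-bp H3K9ac peak lay in a 2302-bp H4 peak (ratio 6.95), with H3K4me3 and H3K9me3 and no Pol II. On chromosome 2 from 31805578 to 31811635 a 961-bp H3K9ac peak lay in a 6057-bp H4 peak (ratio 6.30). On chromosome 15 from 62049502 to 62052561 a 530-bp H3K9ac peak lay in a 3059-bp H4 peak (ratio 5.77), with 2 Pol II peaks and no H3K4me3. Of the 5 sites with the lowest ratio, 0.164 to 0.222, all 5 met H3K4me3 and none met H3K9me3. Of the 5 with the highest, 4.88 to 6.95, 3 met H3K4me3 and 3 met H3K9me3.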

How the data were processed

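For each antibody the authors deposited peak positions (chromosome, start, end; mm9) without heights or read counts, so depth is unknown. The submitters' processing notes name CASAVA 1.8.2, BWA and Picard. Which program called the peaks, and with what threshold and filters, was not given in the sources used here; list length and width depend on both. Coordinates are as in the files. Overlaps, clusters of overlapping peaks, widths and 1-Mb bins by peak centre were computed with Python 3.11.15, numpy, pandas and scipy 1.17.1; the code was tested on simulated data. No mm9 genome or annotation was used, so genes and sequences are not named at peaks and fibroblast identity was not checked. Members, groups and looks were chosen with earlier results of these data known. Sites named were the 5 widest or most unequal of each kind and the 5 bins with most peaks or the largest difference. Alternatives changed the overlap rule, list length, peak width, joining, bin size and chromosomes.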

Additional observations from a re-analysis of the deposited data

How the results depend on the processing

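Each list is 1 sample and peaks carry no score, so neither replicate error nor the effect of the calling threshold could be measured; width stood in for it. No paired analysis was possible because each mark has 1 list. The share of H3K9ac peaks with H4 hyperacetylation was 88.1% with at least 50% of the peak covered, 87.3% with centres within 1000 bp, 93.1% in the wider 50% of each list, 77.9% with the H4 list cut to its 28308 widest peaks, 78.1% with every peak set to 500 bp and 92.7% with peaks closer than 500 bp joined. In the same order the share of H4 peaks with H3K9ac was 63.8%, 62.3%, 66.3% (within the interval of the reported value), 80.1%, 53.5% and 67.8%. At equal list length 77.9% and 80.1% were nearly alike, which mostly one-to-one overlaps give by construction. H3K4me3 at H3K9ac-only peaks was 70.4%, 71.0%, 91.1%, 72.7%, 78.2% and 60.1%. At H4-only peaks it was 21.4%, 27.2%, 62.1%, 21.2%, 36.3% and 17.4%, below the H3K9ac-only value under each of these 6 settings. In the wider 50%, single-mark peaks include those that met only a narrower peak of the other list, which that setting removed. The median width ratio was 0.923 in the wider 50% and 0.982 with peaks joined, with H4 the wider mark at 33.8% and 46.6% of sites. The ratio stayed below 1 at sites with H3K4me3 and Pol II, between 0.905 and 0.937, and above 1 at sites with neither, between 1.05 and 1.23, over the 4 alternatives in which it was computed. Pearson's r over bins was 0.903 in 100-kb bins, 0.972 in 5-Mb bins, 0.979 by covered bp and 0.973 with the H4 list cut. The ratio on X was 0.943 by covered bp, 0.762 with the H4 list cut, 1.15 in the wider 50% and 1.13 with peaks joined, each below all 19 autosomes. With numbered chromosomes only, each of the 7 results it applies to stayed within 0.01 (r) or within its interval. The cause of the differences between settings was not tested.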
